A study of Mus musculus with 10 samples.

Results

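The 10 genes described here encode the main transcriptional regulators of mitochondrial and oxidative metabolism in muscle: the PGC-1 coactivators (Ppargc1a, Ppargc1b) and the related muscle regulator Perm1, the estrogen-related receptors (Esrra, Esrrb, Esrrg), the receptors PPARalpha and PPARdelta (Ppara, Ppard), nuclear respiratory factor 1 (Nrf1) and the mitochondrial transcription factor Tfam. They were chosen by symbol, with earlier results of these data known. Of the 23337 genes in the authors' deposited table, 9 matched by symbol, and Perm1 was found under its older symbol 2310042D19Rik through the RefSeq gene table, so that all 10 were available. For each of the 10 the authors' deposited table gave an adjusted p-value.

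The cells were cardiomyocytes of wild-type mice. On postnatal day 1 the mice received the virus AAV9-cTNT-dnMKL1-GFP or, as its control, AAV9-cTNT-GFP, at 5e+08 viral genomes per gram. Cells were collected on postnatal day 14 by collagenase perfusion and fluorescence-activated sorting. cTNT, the promoter of cardiac troponin T, drives expression in cardiomyocytes, and dnMKL1 is a dominant-negative form of MKL1 (MRTF-A), a coactivator of serum response factor (SRF). Both groups carried AAV9 and GFP, so the comparison is between dnMKL1 with GFP and GFP alone, with 5 biological replicates in each group. The labels do not say whether a replicate was 1 heart or a pool, nor which gate was used in the sort.

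PGC-1 proteins bind no DNA themselves. They are recruited by receptors such as the ERRs and PPARalpha and by NRF1, and raise transcription of genes for oxidative phosphorylation, the citric acid cycle and fatty acid oxidation. NRF1 and the ETS factor GABP act on nuclear genes for respiration and on Tfam, whose product packages mitochondrial DNA and starts its transcription. In the heart this network is known for the shift toward fatty acids as fuel after birth.

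The authors' deposited table holds 1 comparison and no values per library, so each gene is given by its base mean (the average normalized count over the 10 libraries), its group means implied by base mean and fold change, and the log2 fold change with its standard error (SE), which carries the spread between replicates. Positive values mean higher in dnMKL1, a direction read from Mkl1, whose reads can come from the vector: the authors' deposited table put its log2 fold change at 9.80 (SE 0.15). Estimated library totals ran from 8803028 to 17228616 counts. A gene was called at a Benjamini-Hochberg adjusted Wald p-value under 0.05. The summed implied means were 13330302 normalized counts with GFP and 10915829 with dnMKL1, and scaling both groups to the same total would raise every log2 fold change by 0.29. These totals include the metabolic genes and the cardiomyocyte markers described below. The ERR and PGC-1 targets summed to 961407 with GFP and 604875 with dnMKL1, and the PPAR targets to 323745 and 215714. The 6 cardiomyocyte markers summed to 1.06e+06 with GFP and 628043 with dnMKL1. Part of the fall of each of these lists is thus taken up in the shift. Values under this total-count scaling are given beside each of the 10 regulators whose call they change.

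Of the 10 regulators, 7 were lower and 0 higher in dnMKL1 cardiomyocytes. Over all 14056 tested genes, 34.1% were called, 17.4% lower and 16.6% higher. Because the 10 were chosen with earlier results known, their count is not independent of those results. At an adjusted p-value under 0.01, 6 of the 10 were lower, beside 13.4% of all tested genes. The 7 were Ppargc1b, Ppara, Tfam, Esrra, Perm1, Esrrb and Ppargc1a, while Esrrg, Nrf1 and Ppard were not past the threshold. The median log2 fold change of the 10 was -0.49, against 0.021 over all tested genes. Abundant genes were called lower more often. Between base means of 1000 and 10000, where 40.1% of genes were called lower, all 3 regulators were (Perm1, Ppargc1a, Esrra). Between 100 and 1000, where 19.3% were called lower and 20% higher, 4 of 6 regulators were lower. Under total-count scaling 4 of the 10 were lower (Ppargc1b, Ppara, Tfam and Esrra) and 2 were higher (Esrrg and Nrf1), beside 6.6% lower and 40.4% higher over all tested genes. Scaling to the summed means of genes with base means under 10000 (trimmed scaling) raises each log2 fold change by 0.11 and left 5 lower and 0 higher, beside 12.1% and 23.3% of all tested genes.

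**Figure D1:**
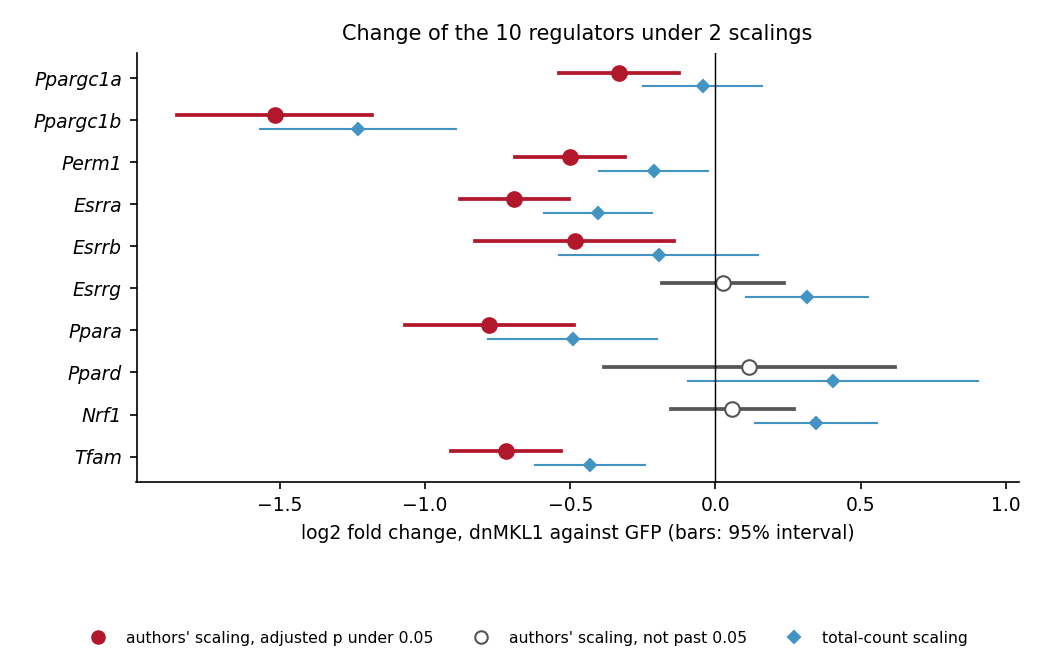
Log2 fold change (x axis, dnMKL1 against GFP) of each of the 10 regulators (y axis) in the authors' deposited table (circles, filled where the adjusted p-value was under 0.05) and after total-count scaling (blue diamonds), with bars for the 95% intervals. Ppargc1b lies farthest to the left under both scalings, and Esrrg, Ppard and Nrf1 lie to the right of 0 under both, whereas the intervals of Ppargc1a and Esrrb cross 0 only after total-count scaling.

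**Figure D2:**
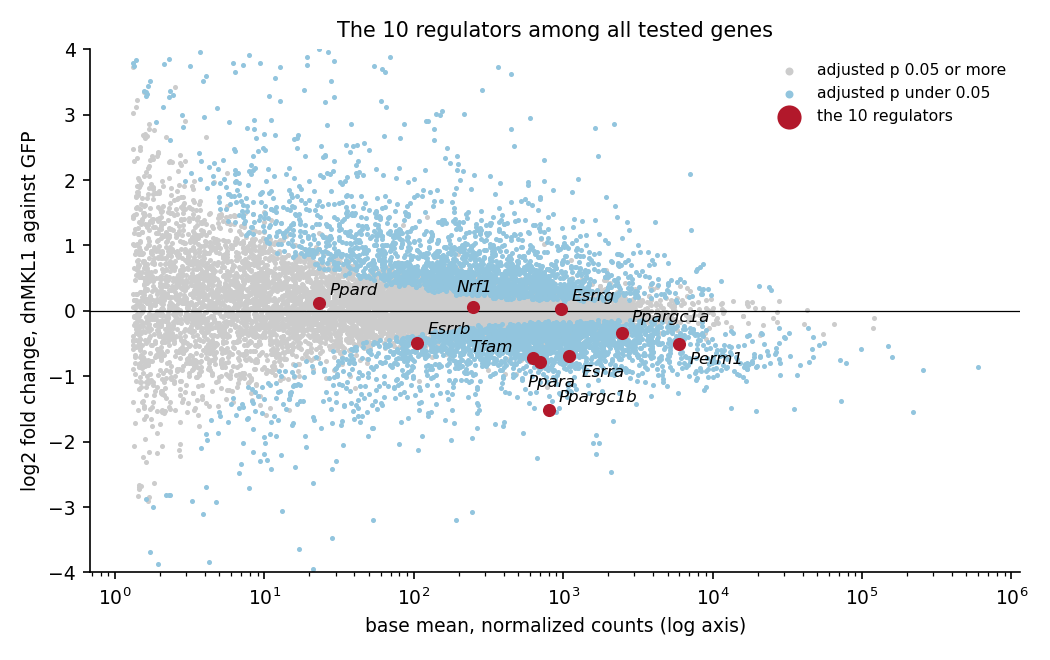
Base mean in normalized counts (x axis, log scale) against log2 fold change (y axis) for all tested genes in the authors' deposited table, with the 10 regulators in red. The 33 genes beyond 4 in either direction are not drawn. The called regulators spread over base means from 105 (Esrrb) to 5999 (Perm1).

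Of the markers of the sorted cell type, all 6 (Myh6, Tnnt2, Tnni3, Actn2, Ttn and Ryr2) were abundant, with base means of 10438 to 594986 in the authors' deposited table. Of these, 5 were called lower and 0 higher, beside 70.7% lower and 3.57% higher among the 140 genes with base means of 10000 or more. Their median log2 fold change was -0.54, or -0.25 under total-count scaling, where Tnni3 (-0.20) and Ttn (-0.12) were no longer called. The summed implied means of 6 fibroblast markers were 3093 normalized counts with GFP and 4303 with dnMKL1 (3 called higher, 0 lower), and those of 6 endothelial markers were 2239 and 2294 (0 called). The 3 fibroblast markers called were all collagen genes, and the other 3 were not past the threshold. For these and the marker counts that follow, the shares over all tested genes were 16.6% higher and 17.4% lower. For 6 mural markers the sums were 1422 and 3100 (2 called higher, 0 lower, with Cspg4 contributing 501 and 2019), and for 6 macrophage markers 143 and 127 (1 called higher, 0 lower). Of 6 erythroid markers, Hba-a1 and Hba-a2, near-identical copies, were listed at 0, and 3 of the others had an adjusted p-value, with 0 called and summed implied means of 54.4 and 76.3 normalized counts. The part of these marker levels in the results on the regulators was not tested. In bulk RNA, fewer cells of a type and less RNA per cell cannot be told apart.

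The coactivators came first. Ppargc1b encodes PGC-1beta, a coactivator of ERRs in basal mitochondrial gene expression, and lies on chromosome 18 (61298136 to 61400431, minus strand, here and below on GRCm38 in the GENCODE M21 annotation). Its implied mean was 1182 normalized counts with GFP and 413 with dnMKL1. This was the largest change of the 10: the authors' deposited table gave a log2 fold change of -1.52 (SE 0.17, 95% interval -1.86 to -1.18) with a Benjamini-Hochberg adjusted Wald p of 9.9e-17. On the linear scale its level fell by 65.1%, and fewer than 1 in 100 tested genes had a lower log2 fold change (percentile 0.996). The fold change remained -1.23 under total-count scaling.

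Ppargc1a encodes PGC-1alpha, the inducible coactivator that responds to cold, exercise and energy demand, and lies on chromosome 5 (51454250 to 51567726, minus strand). It had an implied mean of 2741 normalized counts with GFP and 2178 with dnMKL1. The authors' deposited table put its log2 fold change at -0.33 (SE 0.10, 95% interval -0.54 to -0.13; Benjamini-Hochberg adjusted Wald p = 0.0066). The call depended on scaling. Recomputed with the SE of the authors' deposited table, the value was -0.044 (Benjamini-Hochberg adjusted Wald p = 0.76) under total-count scaling and -0.23 (adjusted Wald p = 0.078) under trimmed scaling. The intervals of Ppargc1a and Ppargc1b did not overlap. The difference between them was not tested, because the covariance of the genes over the libraries they share is not in the table. Per kilobase of longest transcript, the level of Ppargc1b was 0.762 times that of Ppargc1a with GFP and 0.335 times with dnMKL1. Pprc1, the third member of the coactivator family, had a log2 fold change of 0.020 (SE 0.11) in the authors' deposited table, or 0.31 and called higher under total-count scaling (Benjamini-Hochberg adjusted Wald p = 0.011).

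Perm1, a muscle-specific regulator induced by PGC-1 and ERRs, lies on chromosome 4 (156215868 to 156221307, plus strand). It was the most abundant of the 10, also per transcript length, with implied means of 7032 and 4967 normalized counts in the GFP and dnMKL1 groups. The authors' deposited table gave a log2 fold change of -0.50 (SE 0.10, 95% interval -0.69 to -0.31; Benjamini-Hochberg adjusted Wald p = 2.4e-06). With the SE of the authors' deposited table, total-count scaling gave -0.21, no longer called (Benjamini-Hochberg adjusted Wald p = 0.056).

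The 3 estrogen-related receptors, orphan nuclear receptors that bind the same response element, differed in level and in change. Esrra (chromosome 19, 6910977 to 6921813, minus strand) encodes ERRalpha, the isoform most tied to PGC-1 activity. Its implied mean was 1356 normalized counts with GFP and 839 with dnMKL1. The authors' deposited table put its log2 fold change at -0.69 (SE 0.10, 95% interval -0.88 to -0.51; Benjamini-Hochberg adjusted Wald p = 1.5e-11), and it was -0.40 and still called under total-count scaling. Of the 10 regulators, Esrra was the 1 whose annotated exons overlapped those of other genes, by 73 bases of Trmt112 on the opposite strand and by a microRNA of 91 bases.

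Esrrg encodes ERRgamma, the receptor enriched in heart and other oxidative tissues (chromosome 1, 187608791 to 188214885, plus strand). Its implied means were 956 normalized counts with GFP and 974 with dnMKL1. The authors' deposited table put its log2 fold change at 0.027 (SE 0.11, 95% interval -0.18 to 0.24; Benjamini-Hochberg adjusted Wald p = 0.89), and at this SE an absolute value of 0.26 would have been needed for a call. With the same SE of the authors' deposited table, the value under total-count scaling was 0.31 and Esrrg was called higher (Benjamini-Hochberg adjusted Wald p = 0.0093). The intervals of Esrra and Esrrg did not overlap, and their difference was not tested for the same reason as above. Per kilobase of longest transcript, Esrra stood at 3.06 times Esrrg with GFP and 1.86 times with dnMKL1. With exon union lengths these ratios were 2.01 and 1.22, so the size of the ratio rests on the transcript model.

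Esrrb, known mainly from stem cells and placenta, was the least abundant receptor of its family (chromosome 12, 86361117 to 86521628, plus strand), with implied means of 122 and 87.3 normalized counts in the GFP and dnMKL1 groups. The authors' deposited table gave a log2 fold change of -0.48 (SE 0.17, 95% interval -0.83 to -0.14; Benjamini-Hochberg adjusted Wald p = 0.019). It was past the threshold by little. With the SE of the authors' deposited table it was -0.20 under total-count scaling (Benjamini-Hochberg adjusted Wald p = 0.37) and -0.38 under trimmed scaling (adjusted Wald p = 0.077).

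The PPARs are fatty acid sensors that bind DNA with RXR partners. Ppara, the main isoform for fatty acid oxidation in heart (chromosome 15, 85734983 to 85802819, plus strand), had implied means of 890 normalized counts with GFP and 518 with dnMKL1. The authors' deposited table put its log2 fold change at -0.78 (SE 0.15, 95% interval -1.07 to -0.49; Benjamini-Hochberg adjusted Wald p = 1.8e-06), a level that fell by 41.8%. It was -0.49 and still called under total-count scaling. Ppard (chromosome 17, 28232700 to 28301474, plus strand) was the lowest of the 10, with implied means of 22.2 and 24.1 normalized counts. The authors' deposited table gave it a log2 fold change of 0.12 (SE 0.26, 95% interval -0.38 to 0.62; Benjamini-Hochberg adjusted Wald p = 0.79). At that depth an absolute log2 fold change under 0.61 could not have been called, so a change as large as that of Perm1 was not detectable for Ppard.

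Nrf1 and Tfam form the step toward mitochondrial DNA. Nrf1 here is nuclear respiratory factor 1 and not the stress factor Nfe2l1, which shares the abbreviation (chromosome 6, 30047988 to 30153458, plus strand). Its implied means were 243 normalized counts with GFP and 253 with dnMKL1. The authors' deposited table put its log2 fold change at 0.058 (SE 0.11, 95% interval -0.15 to 0.27; Benjamini-Hochberg adjusted Wald p = 0.74), and it was 0.35 and called higher under total-count scaling (Benjamini-Hochberg adjusted Wald p = 0.0040). Tfam (chromosome 10, 71225464 to 71238280, minus strand) went from an implied mean of 783 normalized counts to 475. The authors' deposited table gave -0.72 on the log2 scale (SE 0.10, 95% interval -0.91 to -0.53; Benjamini-Hochberg adjusted Wald p = 3e-12), and the value was -0.43 and still called under total-count scaling. On the linear scale the level of Tfam fell by 39.3%.

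Per kilobase of longest transcript, the implied level with GFP was highest for Perm1 (1803 normalized counts per kilobase), followed by Esrra (545), Ppargc1a (424), Ppargc1b (323), Ppara (261), Tfam (188), Esrrg (178), Nrf1 (60.2), Esrrb (28.4) and Ppard (5.97). With dnMKL1 the levels per kilobase of Esrra (337.1) and Ppargc1a (336.9) were nearly equal, Esrrg (181) stood above Ppara (152), and Ppargc1b (113) stood beside Tfam (114). Neighbours in either order were not tested, since the table gives the error of a gene's change and not of its level in a group. The order rests on the transcript length used: with exon union lengths Ppargc1a (416) was above Esrra (309) in the GFP group.

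**Figure D3:**
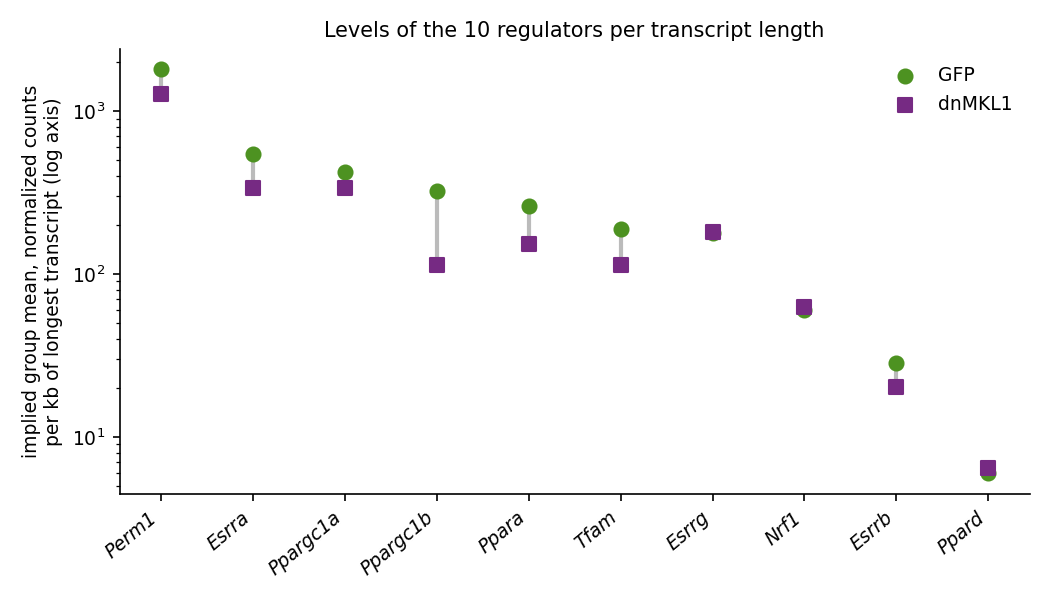
Implied group mean in normalized counts per kilobase of longest transcript (y axis, log scale) for the 10 regulators (x axis, ordered by the GFP level), with green circles for GFP and purple squares for dnMKL1; no error is drawn, since the table gives none for a group mean. Under the authors' scaling the widest gap is that of Ppargc1b (323 against 113), and the symbols of Esrrg, Nrf1 and Ppard nearly coincide.

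The promoters of the regulators were searched in the RefSeq table on GRCm38.p6, which held 14 windows for 9 of the 10 genes (not Ppargc1b). The 250 bases before the RefSeq start were read on both strands for 4 motifs. This start can differ from the GENCODE positions given above. The matches printed below for Ppara and Tfam lie inside those positions, and that of Perm1 lies across their edge. The ERR response element TNAAGGTCA was in 0 of the 14 windows and in 1.14% of 32851 windows of all genes. An exact CArG box, the SRF site, was also in 0 of 14, beside 1.47% of all windows. The NRF1 site GCGCANGCG was in 2 of 14 (5.16% of all), in Ppara and Esrra, and the ETS site CCGGAAG, bound by GABP among others, in 1 of 14 (6.91% of all), in Tfam. A CArG box with at most 1 letter off was in 2 of 14, in Perm1 and in Ppargc1a, beside 18.6% of all windows. The exact matches lay in Ppara, Esrra and Tfam and are shown whatever the change of these genes. The CArG boxes with 1 letter off in Perm1 and Ppargc1a are shown because MKL1 is a coactivator of SRF. Whether SRF acts on these genes was not tested. Each is 30 bases from 5′ to 3′ along the gene's strand with the match in capitals, and a match is a description of letters and not of binding. In Ppara the motif also matched on the other strand, shifted by 1 base.
Ppara, NRF1 site 31 to 23 bases before the start (chr15:85735735-85735764, plus strand): gggctcggtgGCGCATGCGcgcggactagg
Esrra, NRF1 site 141 to 133 bases before the start (chr19:6921930-6921959, minus strand): acaggaggccGCGCACGCGtgtgtatcgac
Tfam, ETS site 47 to 41 bases before the start (chr10:71238073-71238102, minus strand): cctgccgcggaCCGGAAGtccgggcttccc
Perm1, CArG box with 1 letter off, 62 to 53 bases before the start (chr4:156215855-156215884, plus strand): cagggacaggCTATTTTTGGaagtaggggc
Ppargc1a, CArG box with 1 letter off, 129 to 120 bases before the start (chr5:51567835-51567864, minus strand): gctcttacgtCCATATCTGGctgagatcgg
Ppargc1a, CArG box with 1 letter off, 94 to 85 bases before the start (chr5:51567800-51567829, minus strand): acatttgtgtCCTATTGTGGaattcattga

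Of 27 genes for coregulators and partner factors, 8 were called lower, 2 higher and 17 were not past the threshold, with a median log2 fold change of -0.12, beside 17.4% lower and 16.6% higher over all genes. Under total-count scaling 1 was lower and 8 were higher, beside 6.6% and 40.4% of all genes. The 1 lower under every scaling tried was Rxrg, a dimer partner of PPARs enriched in striated muscle, whose implied mean was 1324 normalized counts with GFP and 452 with dnMKL1. The authors' deposited table put its log2 fold change at -1.55 (SE 0.21; Benjamini-Hochberg adjusted Wald p = 3.3e-12), close in size to that of Ppargc1b. The other RXRs had smaller values in the authors' deposited table, -0.23 (SE 0.09) for Rxrb and -0.20 (SE 0.17) for Rxra, and both turned positive under total-count scaling. Gabpa, the DNA-binding subunit of GABP, fell from 1067 to 817 normalized counts in implied mean, a log2 fold change of -0.38 (SE 0.08) in the authors' deposited table that was -0.097 and not called under total-count scaling. The corepressors Nrip1 and Ncor1 and the deacetylase Hdac3 had values of -0.33 (SE 0.11), -0.24 (SE 0.10) and -0.20 (SE 0.07) in the authors' deposited table. These were past the threshold by little, and under total-count scaling Nrip1 was at -0.039 and not called, while Ncor1 and Hdac3 turned positive (0.044 and 0.086). Klf15, Yy1, Mef2a and Lpin1 were not past the threshold. The 2 called higher were Pparg, the adipose PPAR, and the coactivator Ncoa3, named after their values were seen. Pparg was low, with implied means of 28.3 and 58.8 normalized counts, with a log2 fold change of 1.05 (SE 0.30; Benjamini-Hochberg adjusted Wald p = 0.0019) in the authors' deposited table.

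Signalling enzymes that act on PGC-1alpha, among them AMP-activated protein kinase (AMPK), calcineurin and calcium/calmodulin kinases, had 7 of 15 genes lower and 1 higher, with a median log2 fold change of -0.29, beside 17.4% lower and 16.6% higher over all genes and 40.1% lower between base means of 1000 and 10000. Under total-count scaling 4 were lower and 2 higher, with a median of -0.0063, beside 6.6% and 40.4% of all genes. Camk2d, the main calcium/calmodulin kinase II of heart, had implied means of 6206 and 3720 normalized counts in the GFP and dnMKL1 groups, and a log2 fold change of -0.74 (SE 0.10; Benjamini-Hochberg adjusted Wald p = 4.2e-12) in the authors' deposited table. Among the subunits of AMPK, 3 were called lower and 1 higher. The catalytic subunit Prkaa2 went from 3965 to 2685 normalized counts in implied mean, with -0.56 (SE 0.11) in the authors' deposited table. The beta subunits Prkab2 and Prkab1 had -0.70 (SE 0.12) and -0.30 (SE 0.08) in the authors' deposited table, the latter -0.012 and not called under total-count scaling. The regulatory subunit Prkag2 went from 737 to 1314, with 0.83 (SE 0.12; Benjamini-Hochberg adjusted Wald p = 1.2e-10) in the authors' deposited table. Prkag1 and Prkaa1 were not past the threshold, at -0.15 (SE 0.09) and -0.10 (SE 0.10) in the authors' deposited table, and both turned positive under total-count scaling (0.14 and 0.19). Of these, Prkab1, Prkab2 and Prkaa1 were named after their values were seen. The calcineurin subunit Ppp3r1 had -0.29 (SE 0.10) in the authors' deposited table and was not called under total-count scaling (-0.0063). The calcineurin genes Ppp3cb and Ppp3ca, also named after their values were seen, differed. Ppp3cb had -0.61 (SE 0.09; Benjamini-Hochberg adjusted Wald p = 4.4e-11) in the authors' deposited table. It was -0.33 under total-count scaling (interval -0.49 to -0.16). Ppp3ca was not past the threshold at 0.014 (SE 0.09) in the authors' deposited table, and was 0.30 under total-count scaling (interval 0.13 to 0.47).

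Genes for transcription and upkeep of mitochondrial DNA, where Tfam acts, had 12 of 20 members lower and 0 higher, with a median log2 fold change of -0.35, beside 17.4% lower and 16.6% higher over all genes. Under total-count scaling 6 were lower and 3 higher, with a median of -0.058, beside 6.6% and 40.4% of all genes. Lrpprc, which stabilizes mitochondrial mRNAs, had implied means of 5485 and 2497 normalized counts and the largest change, -1.14 (SE 0.11; Benjamini-Hochberg adjusted Wald p = 5e-22) in the authors' deposited table. Tfb2m and Tfb1m were both lower: the authors' deposited table gave -0.61 (SE 0.13) for Tfb2m, which works with Tfam and Polrmt at the mitochondrial promoter, and -0.77 (SE 0.19) for Tfb1m, a methyltransferase of mitochondrial ribosomal RNA. The helicase Twnk (listed as Peo1) had -0.58 (SE 0.09) in the authors' deposited table, and Tfb2m, Tfb1m and Twnk were also negative under the other scalings. The RNA polymerase Polrmt had -0.35 (SE 0.09) in the authors' deposited table and was not called under total-count scaling (-0.063). The DNA polymerase Polg was not past the threshold at -0.038 (SE 0.11) in the authors' deposited table, and was 0.25 and called higher under total-count scaling (Benjamini-Hochberg adjusted Wald p = 0.044). Lonp1, the protease that degrades TFAM, had -0.24 (SE 0.10) in the authors' deposited table and 0.050 under total-count scaling. The 13 mRNAs encoded by mitochondrial DNA were not matched by symbol or RefSeq synonym among the listed genes, so they were not analysed here.

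Genes known as targets of the receptors were mostly lower. Both lists were drawn up with the earlier result for respiratory and fatty acid genes known, so their direction is not independent of it. Of 24 ERR and PGC-1 targets, 23 were lower and 0 higher, with a median log2 fold change of -0.80. Over all genes 17.4% were lower, but most of these targets were abundant, and at base means of 10000 or more 70.7% of genes were lower, with a median of -0.60. Under total-count scaling 21 were lower and 0 higher, beside 6.6% and 40.4% of all genes. The most abundant were Atp5b and Atp5a1 of the ATP synthase, the oxygen store Mb and the ADP/ATP carrier Slc25a4. The authors' deposited table gave fold changes on the log2 scale of -0.55 (SE 0.10) for Atp5b, -0.80 (SE 0.10) for Atp5a1 and -0.76 (SE 0.14) for Slc25a4. Mb was the 1 not past the threshold, at -0.26 (SE 0.13) in the authors' deposited table, and turned to 0.032 under total-count scaling. Cytochrome c (Cycs) had -0.97 (SE 0.16), and Sdha, of complex II, had -0.83 (SE 0.10) in the authors' deposited table. Vegfa, a target of PGC-1alpha and ERRalpha outside metabolism, had -0.36 (SE 0.07) in the authors' deposited table and was not called under total-count scaling (-0.067).

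PPAR targets had 16 of 25 lower and 2 higher, with a median log2 fold change of -0.60, beside 17.4% lower and 16.6% higher over all genes. The shares lower were 40.1% between base means of 1000 and 10000 and 70.7% at 10000 or more. Under total-count scaling 12 were lower and 4 higher, beside 6.6% and 40.4% of all genes. Pdk4, which shuts glucose carbon out of the citric acid cycle, had -0.85 (SE 0.25), and the uncoupling protein Ucp3 had -0.81 (SE 0.21) in the authors' deposited table. Acadvl, an enzyme of long-chain oxidation, had -0.98 (SE 0.11), and Lpl and Fabp3, for uptake and binding of fatty acids, had -0.57 (SE 0.12) and -0.41 (SE 0.13) in the authors' deposited table, the last not called under total-count scaling. The fatty acid transporter Cd36, at -0.17 (SE 0.08) in the authors' deposited table, and Angptl4, at -0.21 (SE 0.49), were not past the threshold, and both turned positive under total-count scaling. Among those called higher was Cpt1a, the carnitine palmitoyltransferase of liver and immature heart, named after its value was seen. The authors' deposited table put it at 0.86 on the log2 scale (SE 0.12; Benjamini-Hochberg adjusted Wald p = 2.4e-11). The muscle isoform Cpt1b had a base mean of 166 normalized counts, below that of Cpt1a (2452), and -0.095 (SE 0.13) in the authors' deposited table. In GENCODE M21, 81.4% of the exon bases of Cpt1b also belong to the read-through gene Gm44502, so its count is uncertain.

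**Figure D4:**
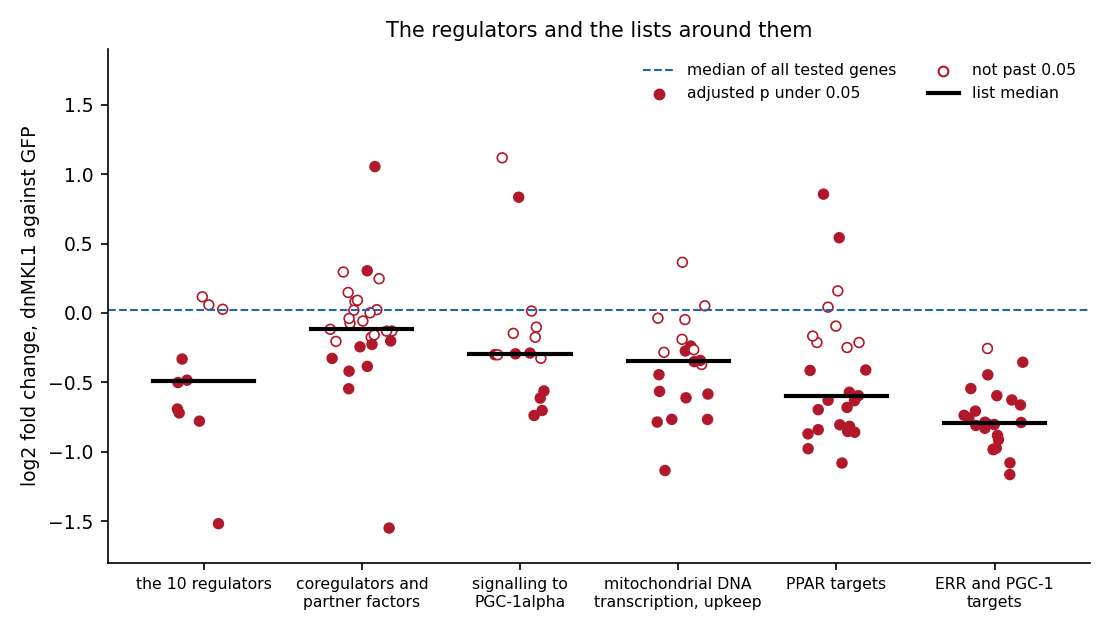
Log2 fold change (y axis, dnMKL1 against GFP; values of the authors' deposited table) of each tested gene in the 10 regulators and 5 lists around them (x axis), filled where the adjusted p-value was under 0.05, with black lines for list medians and a dashed line for the median of all tested genes (0.021). Medians run from -0.12 for coregulators and partner factors to -0.80 for ERR and PGC-1 targets; total-count scaling raises every point by 0.29, which turns the median of the coregulators to 0.17.

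Srf, the factor whose coactivator the vector targets, was itself lower, with implied means of 1082 and 620 normalized counts and a log2 fold change of -0.80 (SE 0.10) in the authors' deposited table. The SEs of Ppargc1b (0.17), Esrrb (0.17) and Ppara (0.15) were above the median SE of genes with base means of 100 to 1000 in the authors' deposited table (0.12), and those of Tfam (0.10), Esrrg (0.11) and Nrf1 (0.11) were below it.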

How the data were processed

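Reads of 10 libraries (5 GFP, 5 dnMKL1) were aligned with STAR 2.5.3a to mm10 and counted per gene with featureCounts (Subread 1.5.2), per the submitters' processing notes; the annotation and strand setting are not given in the sources used here. Per the labels' protocols, 10 ng of total RNA was amplified over 8 PCR cycles with a SMART-Seq kit and 500 pg of cDNA entered a Nextera XT preparation. The authors deposited 1 comparison table. Per the file headers, its base mean is a signal in normalized counts, the fold change and SE are log2 values, the Wald statistic is a score (their ratio, with a largest gap of 1.14e-05), and the deposited p-value and adjusted p-value are those of the Wald test with Benjamini-Hochberg adjustment over 14056 genes (recomputed with a largest gap of 1.44e-07).

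Implied group means were computed from base mean and fold change with both groups weighted equally. Intervals are the log2 fold change plus or minus the normal 95% bound. A call needed a Wald statistic of 2.39 or more in size. Library totals were estimated from size factors (0.660 to 1.28 in GFP, 0.809 to 1.58 in dnMKL1 libraries), recovered from genes with 1 read in 1 library. The adjustment was tested on simulated fold changes. The implied means of the deposited genes gave back base mean and fold change, which their formula ensures. Transcript lengths and positions came from GENCODE M21. Python 3.11.15, numpy 2.4.6, pandas 2.3.3 and scipy 1.17.1 were used.

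The rule for names covered the 10 regulators, the 4 genes with the highest base mean of each other list, and 26 genes fixed by name. For marker lists of other cell types, mainly summed levels are given instead. Of the lists, 6 surround the regulators (the mitochondrially encoded one not analysed here) and 6 are cell type markers. The regulators and all lists were chosen with earlier results of these data known. Alternatives changed the threshold, the adjustment, the minimum base mean, the minimum fold and the scaling. One gene counted in the lists is not reported here by name.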

Additional observations from a re-analysis of the deposited data

How the results depend on the processing

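The sample titles number the replicates, but no paired analysis was possible because the authors' deposited table holds no values per library. For the same reason, neither the fits that leave out 1 library nor the count tests were run. Whether 1 library decides a value is unknown. Trimmed scaling, on genes with base means under 10000, was chosen after seeing the data. All 10 regulators kept their direction under every alternative in which they were tested (Ppard fell under the base mean of 100). An adjusted p under 0.01 ended the call of Esrrb (-0.48). Esrrb and Ppargc1a (-0.33) did not reach the minimum absolute log2 fold change of 0.5, and Perm1 (-0.502) was just past it. Total-count scaling ended those of Esrrb (-0.20), Perm1 (-0.21) and Ppargc1a (-0.044), and added Esrrg (0.31) and Nrf1 (0.35) as higher. This left 4 regulators lower and 2 higher. Trimmed scaling ended the calls of Esrrb (-0.38) and Ppargc1a (-0.23). Median centring and a minimum base mean of 10 changed none of the calls.

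Among coregulators, the count called higher was 1 at an adjusted p under 0.01, when all p-values were adjusted together, among genes with base means of 100 or more, and with an absolute log2 fold change of at least 0.5, and 8 under total-count scaling. The count called lower was 4 at 0.01 and under trimmed scaling, 2 with the minimum fold and 1 under total-count scaling. For signalling genes the lower count was 4 under total-count scaling, trimmed scaling and the minimum fold, and the higher count was 2 under total-count scaling. For mitochondrial DNA genes, total-count scaling gave 6 lower and 3 higher, and the minimum fold 7 lower. PPAR targets had 4 higher under total-count scaling. Each scaling acts by 1 shift added to every gene.

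Total-count scaling turned these named genes positive: Angptl4 (0.075), C1qb (0.083), Cd36 (0.12), Cpt1b (0.19), Csf1r (0.28), Hdac3 (0.086), Klf15 (0.11), Lonp1 (0.050), Lpin1 (0.13), Mb (0.032), Mef2a (0.17), Ncor1 (0.044), Pecam1 (0.22), Polg (0.25), Prkag1 (0.14), Rxra (0.083), Rxrb (0.062), Tek (0.27) and Yy1 (0.25). Trimmed scaling did so for Cpt1b (0.010), Csf1r (0.099), Pecam1 (0.033), Polg (0.068), Tek (0.092) and Yy1 (0.066). Among the 10 regulators, depth limited the test most for Ppard, where an absolute log2 fold change of 0.61 was needed for a call.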
